A study of Mus musculus with 6 samples.

Results

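The genes described here are 10 regulators of the growing hair follicle: the hedgehog genes Shh, Ptch1 and Gli1, the WNT genes Wnt10b and Lef1, the homeobox genes Msx1, Msx2, Dlx3 and Hoxc13, and the forkhead gene Foxn1. They were chosen by symbol, with earlier results of these data known, from 35275 genes listed in the deposited tables. All 10 were found there. The 6 RNA libraries, 3 of interleukin-33 knockout (IL-33 KO) and 3 of wild-type (WT) C57BL/6 mice, were made from back skin, of which the epithelial region was taken. Both genotypes had been painted on the back with the contact allergen dinitrofluorobenzene (DNFB) at 0.25% in acetone and olive oil, 3 times a week for 22 days. Allergen-treated skin is thus the only condition described here. The labels do not describe the Il33 allele and give no age, sex or stage of the hair cycle. They number the samples within each genotype but do not say whether a library is 1 animal; the spread behind each p-value is that between libraries, which may be technical.

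Hair follicles cycle through growth (anagen), regression and rest. In growth, matrix cells at the base of the follicle divide around the dermal papilla, a cluster of mesenchymal cells, and differentiate into the hair shaft and the inner root sheath that encases it. WNT ligands act through beta-catenin and its DNA-binding partner LEF1. Sonic hedgehog, secreted by follicle epithelium, binds the receptor PTCH1 and thereby activates GLI transcription factors, and Ptch1 and Gli1 are themselves targets of the pathway. Homeobox factors and FOXN1 then control the genes of the shaft and sheath. The RNA is from pieces of tissue that mix cell types, so fewer cells of a type and less RNA per cell cannot be told apart.

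Promoter windows from RefSeq (GRCm38.p6, 250 bases before to 50 bases after an annotated start) were listed for 6 of the 10 genes. Windows are shown for Foxn1, Msx2 and Lef1, in which binding motifs of the families studied here occur, and for Msx1. All are written 5′ to 3′ on the gene's strand, and capitals mark a match on either strand. In Foxn1 and Msx2 the match is the homeodomain core TAATTA, which 5.29% of all 32851 listed windows hold. The Msx1 window holds none of the motifs searched and is shown beside that of its close relative Msx2. In the Lef1 window, whose start site lies inside the gene, the matches are the LEF1/TCF cores CTTTGA and CTTTGT, which 31.2% of windows hold.
Foxn1 (chr11:78386559-78386858, minus strand): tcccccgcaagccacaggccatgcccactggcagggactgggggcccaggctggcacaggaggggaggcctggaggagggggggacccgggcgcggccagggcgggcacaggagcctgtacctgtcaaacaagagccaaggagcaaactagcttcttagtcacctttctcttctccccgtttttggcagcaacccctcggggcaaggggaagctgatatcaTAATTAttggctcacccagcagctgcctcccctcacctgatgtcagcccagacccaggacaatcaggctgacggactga
Msx2 (chr13:53472731-53473030, minus strand): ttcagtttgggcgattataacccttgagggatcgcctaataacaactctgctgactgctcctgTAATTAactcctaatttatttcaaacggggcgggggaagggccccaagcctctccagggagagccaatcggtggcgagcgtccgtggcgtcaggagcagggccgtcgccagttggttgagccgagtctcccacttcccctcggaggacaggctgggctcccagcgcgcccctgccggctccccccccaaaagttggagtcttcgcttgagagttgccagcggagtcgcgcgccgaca
Msx1 (chr5:37824536-37824835, minus strand): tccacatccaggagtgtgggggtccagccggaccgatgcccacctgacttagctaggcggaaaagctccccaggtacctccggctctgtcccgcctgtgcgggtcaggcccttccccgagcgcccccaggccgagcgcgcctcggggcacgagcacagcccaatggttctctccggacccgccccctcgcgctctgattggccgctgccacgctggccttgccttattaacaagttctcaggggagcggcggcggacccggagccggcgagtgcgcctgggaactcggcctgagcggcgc
Lef1, start inside the gene (chr3:131156044-131156343, plus strand): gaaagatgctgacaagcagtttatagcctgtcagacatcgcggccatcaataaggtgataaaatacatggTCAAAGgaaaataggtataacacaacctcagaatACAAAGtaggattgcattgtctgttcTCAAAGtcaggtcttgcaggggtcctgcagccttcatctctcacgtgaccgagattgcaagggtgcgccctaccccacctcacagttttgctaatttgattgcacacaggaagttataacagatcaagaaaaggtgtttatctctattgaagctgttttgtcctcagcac
The Foxn1 match begins 29 bases and the Msx2 match 187 bases before the annotated start. The whole Msx2 window lies within the gene span given with the counts (53466884 to 53473074), so its match is not upstream of that span. The Lef1 window holds 3 LEF1/TCF matches, and the other 3 Lef1 windows hold 0. The GLI motif GACCACCCA, present in 0.253% of all windows, was in 0 of the 9 windows listed for these genes, Ptch1 included. A match here describes letters in a window and not binding.

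The libraries held 20459574 to 24359612 counts each, and 15720 genes had enough counts to be tested. Il33, the deleted gene, had 11 to 22 counts in the IL-33 KO libraries against 2817 to 3906 in the WT libraries. Fibroblast marker genes together stood at 12177 to 14216 CPM in IL-33 KO and 12967 to 23177 CPM in WT (CPM, counts scaled to library size with TMM factors).

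All 10 regulators were higher in IL-33 KO skin, with fold changes between 1.76 for Foxn1 and 5.06 for Lef1, and in 9 of them each IL-33 KO library lay above each WT library. Of all tested genes, 7.46% were higher without overlap in this way, and 48% were higher at all. Lef1, Msx1, Shh and Msx2 differed by 4.02- to 5.06-fold, and the other 6 genes by 1.76- to 2.66-fold. By edgeR's quasi-likelihood test, adjusted over all genes with a threshold of 0.05, 0 of the 10 passed, as did 0.0191% of all tested genes. The adjusted p ranged from 0.182 for Dlx3 to 0.543 for Ptch1. At an unadjusted p under 0.05 all 10 were higher, as were 4.87% of all tested genes. Because the 10 were chosen with earlier results of these data known, setting them beside the shares over all genes is no test of the list. In DESeq2 6 of the 10 passed over all genes, namely Msx1, Msx2, Dlx3, Hoxc13, Foxn1 and Gli1, where 1.01% of genes passed as higher. That count was 1 (Dlx3) without IL-33 KO 1, 10 without WT 3, and 4 to 7 without any other single library. Shh reached the count minimum through the IL-33 KO libraries, as 2 of 3 WT libraries met it, while the other 9 genes met it in all 3 WT libraries. Without Shh, 9 of 9 genes were higher and 8 of 9 did not overlap.

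**Figure D1:**
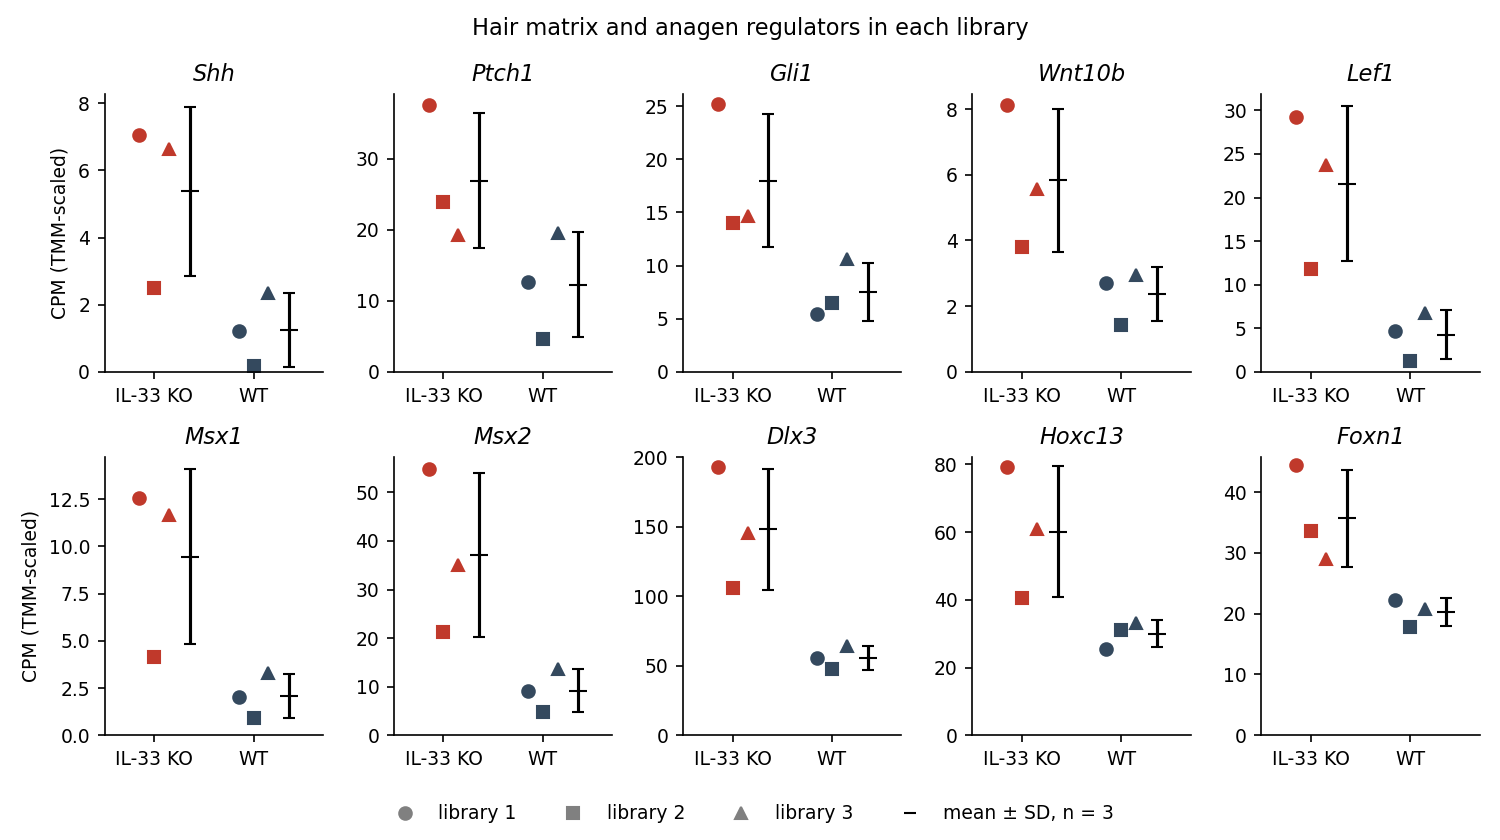
Level of each regulator (CPM, y axis from 0, one scale per gene) in the 3 IL-33 KO and 3 WT libraries; symbols mark the library number and bars the mean ± SD (n = 3). The 2 genotypes overlap in Ptch1 and in no other of the 10 genes, and library 1 is the highest IL-33 KO library throughout.

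**Figure D2:**
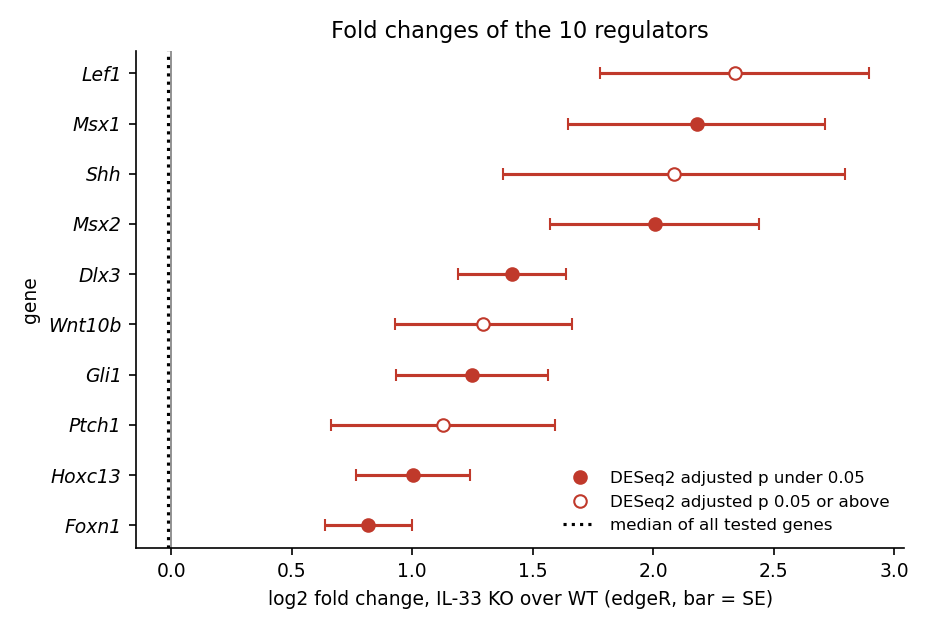
Log2 fold change of each regulator, IL-33 KO over WT, from edgeR (x axis; bars are standard errors); filled points mark the 6 genes that passed in DESeq2. Lef1, Msx1, Shh and Msx2 lie above 2, and the median of all tested genes (dotted) lies at -0.01.

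The hedgehog genes came from ligand, receptor and transcription factor. Shh, the ligand gene (ENSMUSG00000002633, mm10 chromosome 5, 28456815 to 28467101), had 167, 59 and 137 counts in the knockout libraries 1, 2 and 3, against 24, 4 and 60 in WT 1, 2 and 3. Its level was thus 7.04, 2.49 and 6.63 CPM in the IL-33 KO libraries and 1.21, 0.175 and 2.37 CPM in the WT libraries. IL-33 KO 2 and WT 3 were close, with 95% Poisson intervals of 1.89 to 3.21 and 1.81 to 3.05 CPM that cover counting error only, so these 2 libraries differed by less than their counting error. The log2 fold change was 2.09 ± 0.71 (SE; adjusted p 0.498 in edgeR, 0.0815 in DESeq2). It was 2.99 without WT 3, 1.57 without WT 2 and 1.05 on unfiltered log2(FPKM + 1). The 2 genes that overlap Shh on the opposite strand had at most 9 counts in any library.

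Ptch1, the receptor gene (ENSMUSG00000021466, chromosome 13, 63511533 to 63565520), was at 37.6, 24.0 and 19.3 CPM in the IL-33 KO libraries and 12.7, 4.67 and 19.6 CPM in the WT libraries. It was the only regulator whose genotypes overlapped, with WT 3 just above IL-33 KO 3. The log2 fold change of 1.13 ± 0.46 had an adjusted p of 0.543 in edgeR. Gli1, the pathway's transcription factor (ENSMUSG00000025407, chromosome 10, 127329889 to 127341589), was at 25.2, 14.0 and 14.7 CPM in the IL-33 KO libraries, against 5.49, 6.51 and 10.6 CPM in the WT libraries. Each IL-33 KO library lay above each WT library, and the log2 fold change was 1.25 ± 0.32 (adjusted p 0.389 in edgeR, 0.0135 in DESeq2). Gli1 overlaps Arhgap9 on the opposite strand, and no source used here says whether strand entered the counting; reads of these 2 genes may be mixed. Arhgap9 had 275 to 337 counts in IL-33 KO and 265 to 343 in WT.

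Of the other hedgehog genes, 17 of 18 listed were tested and none passed in edgeR. Their median log2 fold change was 0.13, against -0.01 for all tested genes, with 10 higher and 7 lower. Gli3, a GLI factor that often represses, averaged 25.6 ± 2.48 CPM in IL-33 KO and 18.3 ± 4.93 CPM in WT (SD, n = 3 each; adjusted p 0.541 in edgeR). Chosen after their values were seen, Smo, the signal transducer, and Sufu, the cytoplasmic inhibitor, had log2 fold changes of 0.13 ± 0.12 and -0.08 ± 0.13. Hhip, a decoy receptor induced by the pathway and likewise named after its values were seen, was at 2.19, 0.422 and 1.45 CPM in the IL-33 KO libraries and 0.101, 0.0437 and 0.749 CPM in the WT libraries. The log2 fold change of Hhip was 2.10 ± 0.89, with overlap between the genotypes.

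Wnt10b, a WNT ligand that promotes follicle growth in mouse (ENSMUSG00000022996, chromosome 15, 98771753 to 98778150), was at 8.14, 3.80 and 5.56 CPM in the IL-33 KO libraries, against 2.72, 1.44 and 2.96 CPM in the WT libraries. The genotypes did not overlap, and the log2 fold change was 1.30 ± 0.37 (adjusted p 0.437 in edgeR, 0.057 in DESeq2). Lef1, the DNA-binding partner of beta-catenin (ENSMUSG00000027985, chromosome 3, 131110471 to 131224356), was at 29.2, 11.8 and 23.7 CPM in the IL-33 KO libraries and 4.74, 1.22 and 6.78 CPM in the WT libraries. It had the largest log2 fold change of the 10, 2.34 ± 0.56 (adjusted p 0.365 in edgeR, 0.0898 in DESeq2). Even the lowest IL-33 KO library stood 1.74-fold above the highest WT library, the widest gap among the 10 genes. Lef1 is also made by T cells. The T cell gene Cd3e, named after its values were seen, was at 2.57, 2.70 and 2.76 CPM in the IL-33 KO libraries and 2.17, 1.31 and 3.23 CPM in the WT libraries. Tcf7, a LEF1/TCF family gene named likewise, did not overlap. It was at 26.9, 25.1 and 24.7 CPM in the IL-33 KO libraries and 16.4, 14.7 and 19.6 CPM in the WT libraries. Cd3e does not stand for all T cell genes, and the part of T cells in the Lef1 difference was not tested.

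Among the other WNT ligands, receptors and transducers 42 of 44 were tested, 31 were higher and 11 lower, and none passed in edgeR. Their median log2 fold change was 0.16. Fzd5, a frizzled receptor gene, averaged 42.4 ± 11.0 CPM in IL-33 KO and 21.4 ± 2.31 CPM in WT (SD, n = 3 each; adjusted p 0.264 in edgeR, 0.00275 in DESeq2). Wnt11, a ligand gene, averaged 22.3 ± 7.23 CPM in IL-33 KO and 10.7 ± 1.54 CPM in WT (adjusted p 0.341 in edgeR, 0.00947 in DESeq2). Chosen after their values were seen, the ligand genes Wnt10a and Wnt3a had log2 fold changes of -0.08 ± 0.12 and -0.02 ± 0.20, and the beta-catenin gene Ctnnb1 had 0.08 ± 0.13. Wnt10a was at 36.2, 41.8 and 45.8 CPM in the IL-33 KO libraries and 44.5, 44.2 and 42.3 CPM in the WT libraries, an overlap that Wnt10b did not have. Of 22 WNT inhibitors and feedback targets 20 were tested, 16 were higher and 4 lower, with a median of 0.24 and none past the threshold in edgeR. Bambi, an inhibitor of TGF-beta family receptors and a WNT target, averaged 29.8 ± 11.8 CPM in IL-33 KO and 11.4 ± 3.89 CPM in WT (adjusted p 0.38 in edgeR, 0.00665 in DESeq2). Notum, a secreted enzyme that inactivates WNT ligands, averaged 1.26 ± 0.277 CPM in IL-33 KO and 0.349 ± 0.223 CPM in WT (adjusted p 0.408 in edgeR). Axin2, the common feedback target, was at 36.3, 32.3 and 38.7 CPM in the IL-33 KO libraries, against 30.8, 26.8 and 32.0 CPM in the WT libraries. This gene, named after its values were seen, had a log2 fold change of 0.26 ± 0.13.

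Msx1 and Msx2 encode closely related homeobox repressors, and Msx2 is needed to keep mouse hair in growth. Msx1 (ENSMUSG00000048450, chromosome 5, 37820485 to 37824583) was at 12.6, 4.13 and 11.7 CPM in the IL-33 KO libraries and 2.02, 0.917 and 3.27 CPM in the WT libraries. Msx2 (ENSMUSG00000021469, chromosome 13, 53466884 to 53473074) was at 54.8, 21.3 and 35.1 CPM in the IL-33 KO libraries and 9.07, 4.80 and 13.7 CPM in the WT libraries. Neither gene overlapped between genotypes, and IL-33 KO 2 was the lowest IL-33 KO library and WT 2 the lowest WT library for both. The log2 fold changes were 2.18 ± 0.53 for Msx1 and 2.01 ± 0.43 for Msx2, with adjusted p of 0.376 and 0.314 in edgeR and of 0.00202 and 2.1358e-04 in DESeq2. The difference between these log2 fold changes was smaller than the SE of either.

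Dlx3, a homeobox factor needed for the hair shaft and inner root sheath in mouse (ENSMUSG00000001510, chromosome 11, 95120119 to 95125296), was at 193, 106 and 146 CPM in the IL-33 KO libraries, against 55.2, 47.5 and 64.0 CPM in the WT libraries. Its lowest IL-33 KO library stood 1.65-fold above its highest WT library. It ranked 18th of all tested genes by p, and its log2 fold change was 1.41 ± 0.23 (adjusted p 0.182 in edgeR, 6.2882e-06 in DESeq2). In edgeR without the filter on low counts Dlx3 passed, with an adjusted p of 0.0247. Over all its alternatives the adjusted p ranged from 6.2882e-06 to 0.728. It was also the gene that passed in DESeq2 with any 1 library left out. Hoxc13, a homeobox activator of hair keratin genes (ENSMUSG00000001655, chromosome 15, 102921103 to 102928814), was at 79.2, 40.4 and 60.8 CPM in the IL-33 KO libraries, against 25.4, 31.2 and 33.2 CPM in the WT libraries. The genotypes did not overlap, and the log2 fold change was 1.01 ± 0.24 (adjusted p 0.365 in edgeR, 0.0115 in DESeq2). Foxn1, whose loss gives the nude mouse its naked skin (ENSMUSG00000002057, chromosome 11, 78357577 to 78386558), was at 44.5, 33.6 and 29.0 CPM in the IL-33 KO libraries, against 22.2, 17.8 and 20.8 CPM in the WT libraries. It had the smallest difference of the 10, a log2 fold change of 0.82 ± 0.18 (adjusted p 0.315 in edgeR, 0.0167 in DESeq2), and also the narrowest spread among WT libraries.

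Of 33 other transcription factors listed for the growing follicle 31 were tested, 22 were higher and 9 lower, the median log2 fold change was 0.09, and none passed in edgeR. In DESeq2 5 passed, all higher: Cux1, Gata3, Dlx1, Dlx2 and Dlx4. Cux1, a homeodomain factor, averaged 125 ± 36.9 CPM in IL-33 KO and 52.6 ± 14.5 CPM in WT (SD, n = 3 each; adjusted p 0.292 in edgeR). Gata3, a factor of the inner root sheath and of type 2 lymphocytes, averaged 107 ± 11.8 CPM in IL-33 KO and 63.4 ± 11.3 CPM in WT (adjusted p 0.302 in edgeR). The Dlx relatives of Dlx3, named after their values were seen, differed by log2 fold changes of 1.59 ± 0.38 for Dlx1, 1.54 ± 0.35 for Dlx2 and 1.58 ± 0.43 for Dlx4. They stood at 3.50, 5.40 and 3.96 CPM on average in IL-33 KO and 1.16, 1.85 and 1.33 CPM in WT, and Dlx5 had a log2 fold change of -0.33 ± 0.26. Sox9 and Lhx2, factors of follicle stem cells also named after their values were seen, had log2 fold changes of 0.04 ± 0.27 and 0.54 ± 0.35.

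**Figure D3:**
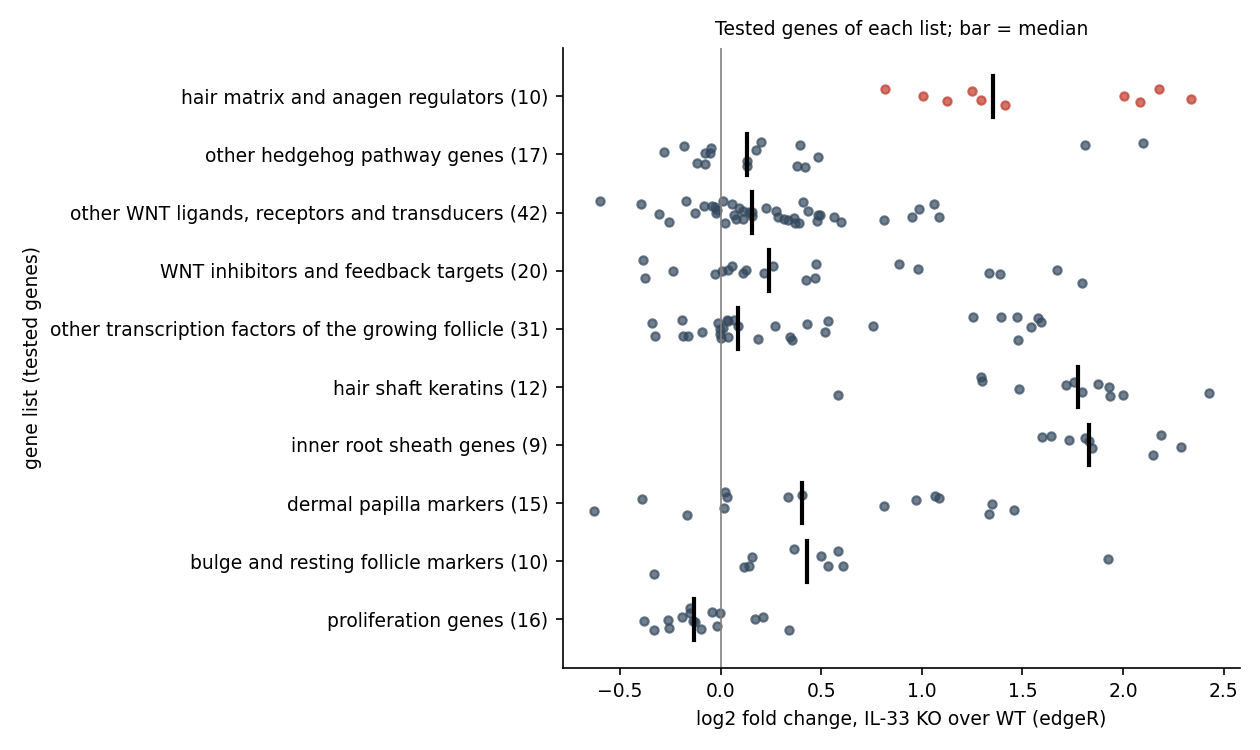
Log2 fold change of every tested gene, IL-33 KO over WT (x axis, edgeR), in the 10 regulators (top) and 9 other lists; the bar is the list's median and the number in brackets the genes tested. The regulators lie between 0.82 and 2.34, the hair shaft keratins between 0.59 and 2.43 and the inner root sheath genes between 1.60 and 2.29, whereas the other pathway lists centre on 0.09 to 0.24.

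Levels per length were compared in FPKM. Dlx3 was the most abundant regulator in both genotypes, at 58.8 ± 19.5 FPKM in IL-33 KO and 20.8 ± 4.40 FPKM in WT (SD, n = 3 each). Hoxc13 followed at 25.3 ± 9.04 FPKM in IL-33 KO and 11.9 ± 2.24 FPKM in WT. Shh was the least abundant, at 2.07 ± 1.01 FPKM in IL-33 KO and 0.466 ± 0.431 FPKM in WT. Between these ends the order in IL-33 KO was Msx2, Foxn1, Ptch1, Lef1, Gli1, Msx1 and Wnt10b. The neighbours Msx2 and Foxn1, Ptch1 and Lef1, Lef1 and Gli1, and Gli1 and Msx1 changed places in 1 of 3 IL-33 KO libraries each. In WT, Foxn1 stood above Msx2 in 3 of 3 libraries, at 6.13 ± 0.826 against 3.71 ± 2.02 FPKM, whereas Msx2 stood above Foxn1 in 2 of 3 IL-33 KO libraries.

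The order of libraries was similar but not the same in the 10 genes. IL-33 KO 1 was the highest library for all 10 genes, and WT 2 was the lowest for 8, WT 1 being the lowest for Gli1 and Hoxc13. WT 3 was the highest WT library for 9 genes, and WT 1 for Foxn1. IL-33 KO 2 was the lowest IL-33 KO library for 8 genes, and IL-33 KO 3 for Ptch1 and Foxn1. Averaged over the 10 genes, the log2 level relative to the mean of all libraries was 1.31, 0.26 and 0.83 in IL-33 KO 1, 2 and 3, against -0.68, -1.53 and -0.19 in WT 1, 2 and 3. The step between the nearest libraries of the 2 genotypes, IL-33 KO 2 and WT 3, was smaller than the span within either genotype. The range within WT was 13.5-fold for Shh and 5.55-fold for Lef1, but 1.25-fold for Foxn1, 1.30-fold for Hoxc13 and 1.35-fold for Dlx3.

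**Figure D4:**
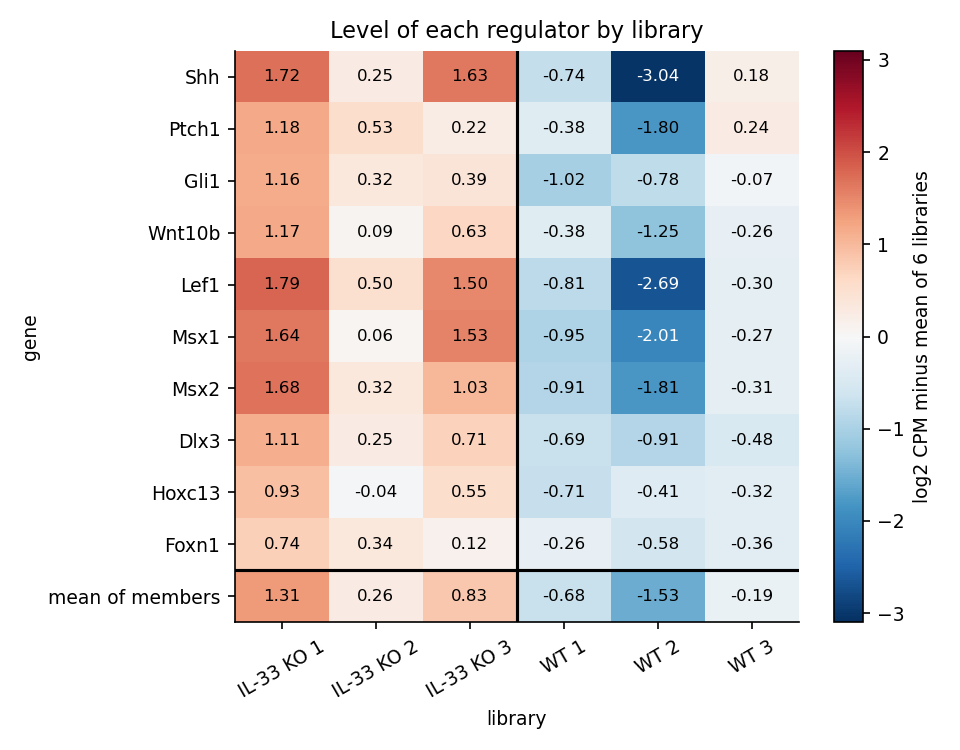
Log2 CPM of each regulator (rows) in each library (columns), minus the gene's mean over the 6 libraries; red is above and blue below that mean, and the bottom row averages the 10 genes. IL-33 KO 1 is darkest red and WT 2 darkest blue for most genes, and Foxn1 and Hoxc13 span the least.

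Genes of any kind were ranked by how closely their library profile followed this average, as the root mean square difference of centred log2 CPM over the 6 libraries. Bambi was closest (0.15), followed by Gpr37, a receptor of neural and glial tissue (0.16), the zinc finger gene Zfp618 (0.17), the melanin enzyme gene Tyr (0.18), the homeobox gene Alx4 (0.18) and the inner root sheath keratin Krt25 (0.19). Of the regulators themselves, which make up the average, Wnt10b lay closest to it (0.21) and Shh farthest (0.74). Of all tested genes 11 lay closer than Wnt10b, 404 closer than Lef1 and 1075 closer than Shh. This measure counts the size of the differences as well as their pattern. Lef1 and Shh ordered the 6 libraries as the average did, but over a wider span. Krt25 was at 2561, 877 and 1321 CPM in the IL-33 KO libraries and 486, 259 and 593 CPM in the WT libraries.

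In the genes of the hair itself, all 12 tested hair shaft keratins and all 9 inner root sheath genes were higher, with median log2 fold changes of 1.77 and 1.83, and none passed in edgeR. Krt85, also chosen for the hair shaft list, was not found by symbol and enters neither these counts nor the ratios below. In DESeq2 1 of the 12 keratins and 7 of the 9 inner root sheath genes passed, and 8 of 12 and 9 of 9 did not overlap between the genotypes. Krt31, a hair shaft keratin, was at 314, 173 and 206 CPM in the IL-33 KO libraries and 57.0, 17.2 and 108 CPM in the WT libraries, and Krt33b, another, had a log2 fold change of 1.79 ± 0.53. Of the inner root sheath keratins, Krt72 was at 581, 433 and 341 CPM in the IL-33 KO libraries and 82.6, 75.5 and 139 CPM in the WT libraries. Krt28 averaged 261 ± 92.3 CPM in IL-33 KO and 53.4 ± 26.7 CPM in WT (SD, n = 3 each). Set against the summed hair shaft keratins of the same library, the 10 regulators together stood at 129, 99.4 and 165 CPM per 1000 in IL-33 KO, against 192, 334 and 102 in WT. The genotypes overlapped, and the exact permutation test gave a two-sided p of 0.4, where 3 against 3 cannot go below 0.1. The log2 difference of this ratio was -0.54 with all libraries, -0.13 without WT 2 and -0.98 without WT 3, and between these values without any other single library. The sum weights each regulator by its level. Dlx3 alone gave 193 of 491 CPM in IL-33 KO 1 and 55.2 of 141 CPM in WT 1, whereas Shh gave 7.04 and 1.21 CPM. The sums of structural genes are weighted in the same way. In the keratin sum Krt86, named after its values were seen, gave 655 of 3810 CPM in IL-33 KO 1 and 144 of 732 CPM in WT 1. In the inner root sheath sum used below Tchh, named likewise, gave 9412 of 20985 CPM in IL-33 KO 1 and 1524 of 3520 CPM in WT 1.

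The ratios of single regulators differed in sign. The ratio of Lef1 was 7.66, 4.49 and 11.1 CPM per 1000 CPM of hair shaft keratins in IL-33 KO and 6.47, 3.51 and 3.92 in WT. That of Foxn1 was 11.7, 12.8 and 13.6 in IL-33 KO and 30.3, 51.0 and 12.0 in WT. The mean log2 difference was 0.70 for Lef1, 0.76 for Shh, 0.35 for Msx1 and 0.17 for Msx2, and it was below 0 for the other 6 genes, down to -1.06 for Foxn1. Ptch1 had the only ratio without overlap, at 9.86, 9.12 and 9.03 in IL-33 KO against 17.3, 13.4 and 11.3 in WT. Its exact permutation p was 0.1, and over the 22 ratios tested the smallest adjusted p was 0.489. With inner root sheath genes in place of the keratins, Gli1 and Foxn1 were the genes without overlap, both lower in IL-33 KO, and Ptch1 overlapped.

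**Figure D5:**
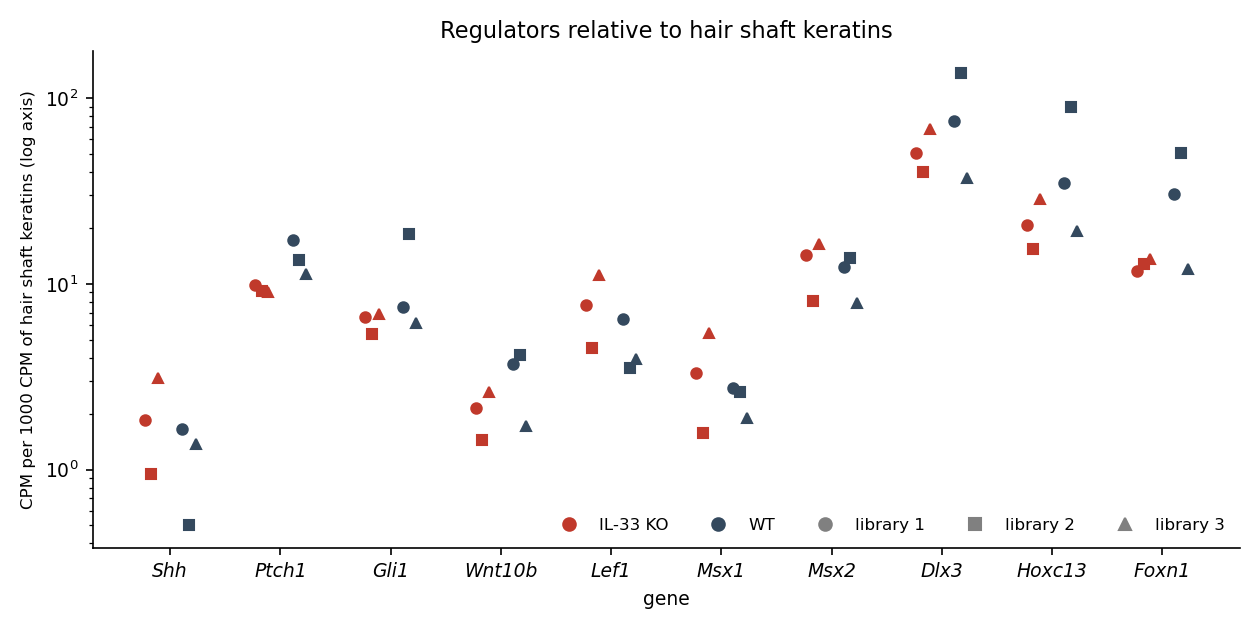
CPM of each regulator per 1000 CPM of summed hair shaft keratins in the same library (log axis), IL-33 KO left of WT for each gene. The genotypes overlap for 9 of the 10 genes, and Ptch1 is lower in each IL-33 KO library.

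Markers of other compartments were counted beside these values. Dermal papilla markers, a site where Lef1, Ptch1 and Gli1 are also expressed, were higher in 12 of 15 tested genes (median log2 fold change 0.40), but their summed level was 111 to 176 CPM in IL-33 KO and 143 to 163 CPM in WT. Crabp1, a retinoid-binding protein gene named after its values were seen, made up much of that sum and ran the other way, at 44.1, 41.6 and 87.7 CPM in the IL-33 KO libraries and 80.7, 121.8 and 66.0 CPM in the WT libraries. Within that list the phosphatase gene Alpl was at 3.88, 2.24 and 3.05 CPM in the IL-33 KO libraries and 1.26, 0.830 and 2.25 CPM in the WT libraries. Bmp4 was at 14.2, 7.38 and 14.1 CPM in the IL-33 KO libraries and 3.12, 1.53 and 8.24 CPM in the WT libraries. In the list of bulge and resting follicle markers 9 of 10 genes were higher (median 0.43). The gene with the largest difference, Fgf5, ends hair growth in mouse and so is not itself a marker of rest. It was at 5.99, 2.45 and 2.32 CPM in the IL-33 KO libraries and 0.907, 0.524 and 1.38 CPM in the WT libraries. Foxc1, a factor of quiescent bulge cells, averaged 54.3 ± 7.90 CPM in IL-33 KO and 36.2 ± 5.99 CPM in WT (SD, n = 3 each). The 1 lower gene of this list had a log2 fold change of -0.33, no overlap between the genotypes and an unadjusted p under 0.05 in edgeR. None of the dermal papilla, bulge or proliferation genes passed in edgeR. Of the proliferation genes 13 of 16 were lower (median -0.13) and the genotypes overlapped in all 16. Mki67 averaged 276 ± 25.7 CPM in IL-33 KO and 218 ± 44.1 CPM in WT, and Ccnb2 averaged 28.9 ± 4.27 CPM in IL-33 KO and 36.3 ± 5.81 CPM in WT.

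Melanocyte markers were higher in 9 of 9 genes and summed to 181 to 350 CPM in IL-33 KO and 101 to 189 CPM in WT, with Mlana and Slc45a2 at log2 fold changes of 1.36 ± 0.33 and 1.61 ± 0.38. Interfollicular epidermis markers were lower in 10 of 12 genes and summed to 43580 to 74456 CPM in IL-33 KO and 59004 to 103600 CPM in WT, with IL-33 KO 1 the lowest of the 6 libraries. The 2 exceptions include Krt2 (log2 fold change 1.28 ± 0.46), and Flg had -0.68 ± 0.35. Skeletal muscle markers, of which 6 of 10 were tested, summed to 141 CPM in IL-33 KO 1, 12.7 CPM in IL-33 KO 2 and 296 CPM in IL-33 KO 3, against 9.32 to 10.001 CPM in WT. Acta1 was at 38.1, 0.548 and 60.8 CPM in the IL-33 KO libraries and 0.353, 0.262 and 0.118 CPM in the WT libraries, and Ryr1 at 8.35, 5.06 and 16.1 CPM in the IL-33 KO libraries and 2.97, 2.88 and 3.11 CPM in the WT libraries. Among IL-33 KO libraries the muscle sum was highest in library 3 and the mean level of the regulators in library 1, and both were lowest in library 2. Adipocyte markers were higher in 9 of 9 genes and summed to 886 to 1253 CPM in IL-33 KO and 182 to 995 CPM in WT, with log2 fold changes of 1.10 ± 0.48 for Retn and 0.91 ± 0.44 for Lpl. Sebaceous gland markers were higher in 3 of 8 genes and lower in 5 (median -0.13). They summed to 1210 to 2349 CPM in IL-33 KO and 635 to 2613 CPM in WT, with log2 fold changes of 0.95 ± 0.57 for Mc5r and 0.78 ± 0.51 for Awat2. Endothelial markers were higher in 3 of 6 genes and summed to 181 to 212 CPM in IL-33 KO and 193 to 221 CPM in WT (Tek 0.41 ± 0.19, Emcn -0.49 ± 0.25, log2 fold changes). Leukocyte markers were lower in 8 of 11 genes (median -0.23) and summed to 1880 to 2665 CPM in IL-33 KO and 2009 to 7258 CPM in WT, with log2 fold changes of 1.39 ± 0.46 for Cd79a and -1.19 ± 0.55 for S100a8. Fibroblast markers were lower in 8 of 9 genes (median -0.35), and Mmp2 and Lum had log2 fold changes of -0.48 ± 0.13 and -0.66 ± 0.24. No list had a marker at 0 in every library. The part of these markers in the difference of the regulators was not tested.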

How the data were processed

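The authors deposited whole-number counts and, separately, FPKM, both by gene. STAR and RSEM (no versions) and mm10 are named in the submitters' processing notes. Genotypes and replicate numbers come from the sample titles. The test of the counts was that of edgeR 4.0.16 under R 4.3.3 (filterByExpr, TMM, quasi-likelihood F test, two-sided, Benjamini-Hochberg over 15720 genes, threshold 0.05), and standard errors were derived from F. The filter asks for 0.437 CPM in 3 libraries. DESeq2 1.42.0, limma 3.58.1 on counts and on log2 FPKM, other scalings and filters, a replicate block and leaving out each library were alternatives. The deposited FPKM values also gave levels per gene length. Exact permutation tests used scipy 1.17.1, and figures matplotlib 3.10.9. The edgeR script was tested on simulated data. The members and gene lists were chosen with earlier results of these data known. Some genes (Rspo2, Rspo3, Wif1, Lgr5, Tcf7l1 and Lhx2) are shared between lists and enter the counts and medians of each. All members were named, and in each other list the genes that passed (up to 4) or otherwise the 2 with the smallest p, plus the 6 genes of the most similar profile; other genes are marked as named after their values were seen. One gene that this rule names is not reported here.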

Additional observations from a re-analysis of the deposited data

How the results depend on the processing

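The log2 fold change was above 0 in all 178 combinations of regulator and alternative that gave a value; Shh was under the FPKM minimum and has no value in the filtered FPKM fits. The median over the regulators was 1.35, and 1.04 to 1.61 over the alternatives. The number of regulators that passed, 0 in edgeR with all libraries, was 1 with no filter on low counts and 6 in DESeq2, and 0 with any library left out of edgeR. DESeq2 with 1 library left out, chosen after seeing the data, called 1 to 10. The regulators at an unadjusted p under 0.05 numbered 8 to 10 in edgeR without 1 library. In the other pathway lists DESeq2 called 9 genes and edgeR 0. Over all genes 3 passed in edgeR (2 higher, 1 lower), against 5 with upper quartile scaling and 5 with total counts (4 higher, 1 lower in each), 33 with no filter, 206 in DESeq2, 11 in limma-voom, 15 with log2(FPKM + 1), 11 with log2(FPKM + 0.1) and 6 with log2(FPKM + 1) unfiltered, and 2 to 24 with 1 library left out (24 without WT 3; 10 and 5 when library 2 or library 3 of IL-33 KO was omitted). The cause of these differences was not tested. Same-numbered libraries deviated in opposite directions (correlations of -0.26, -0.12 and -0.38) and no library correlated best with its own number; with the replicate block 2 genes and 0 regulators passed, with a median of 1.34. Counts limit Shh most, at 4 counts in WT 2 with a 95% Poisson interval of 1.09 to 10.2.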
